A study of Mus musculus with 6 samples.

Results

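To describe the mast-cell transcripts of H22 tumours, 10 genes for mast-cell proteases, receptors and histamine synthesis were read by symbol from a table of 21720 genes. These were the tryptase genes Tpsab1 and Tpsb2, the chymase genes Cma1 and Mcpt4, the carboxypeptidase gene Cpa3, the receptor genes Kit, Ms4a2, Fcer1a and Mrgprb1, and Hdc, whose enzyme makes histamine. All 10 were found in the table and had a measured value in every library. H22 is a mouse hepatocellular carcinoma line, which was injected subcutaneously into female BALB/c mice. Mice of the control group received the vehicle alone by gavage, 0.5% carboxymethyl cellulose sodium, and those of the luteolin group received the plant flavonoid luteolin at 200 mg/kg. Both were dosed daily with 0.2 mL for 21 days once tumours had reached about 50 mm3. The labels give the genotype of all samples as WT and no age. Each group gave 3 libraries of whole tumour, which are numbered 1 to 3 within the group as in the labels. Nothing in the labels says that the libraries came from separate mice, so p values measure only the spread between these libraries.

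Mast cells are tissue-resident leukocytes that store tryptases, chymases, carboxypeptidase A3 and histamine in granules bound to proteoglycan. They depend on the receptor KIT and its ligand, stem cell factor, and release their granules when IgE bound to the high-affinity receptor FcεRI is cross-linked. Mouse mast cells of connective tissue such as skin carry the proteases encoded by Cma1, Mcpt4, Tpsb2 and Cpa3, while mucosal mast cells carry those encoded by Mcpt1 and Mcpt2. In whole tumour RNA, fewer cells of a type and less RNA per cell cannot be told apart.

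Library totals ranged from 61081637 to 80442954 estimated counts, and levels are given as CPM, which scales each count to the TMM-normalized library total. Of 14963 genes tested with edgeR, 11.3% passed the study's threshold with higher levels in the luteolin group and 1.52% with lower levels, where the threshold asks for a fold change over 2 and p under 0.05 without adjustment. With adjustment, 1.34% of genes were higher and 0.187% lower at p under 0.05. Where a gene was at 0 counts, up to 3 counts per library remain possible from counting error alone. This limit takes each count as 1 independent read pair, which is not known here. The 4 genes taken as hepatoma markers went both ways. Afp, which encodes alpha-fetoprotein, had 43.4 to 66.7 CPM in the control libraries and 32.7 to 41.8 CPM in the luteolin libraries (log2 fold change -0.58, unadjusted p = 0.0269, adjusted p = 0.187 in edgeR), Gpc3, named after its values were seen, passed the study's threshold (log2 fold change 2.73, adjusted p = 0.0665 in edgeR), and Alb ranged from 0.868 to 133 CPM with overlap between the groups. Luteolin replicate 2 stood apart by a summed level of 9564 CPM for 10 keratinocyte genes, against 399 CPM in luteolin replicate 1, 16.6 CPM in luteolin replicate 3 and 3.92 to 4.77 CPM in the control libraries. The counts of mast-cell genes and of related lists are also given without that library.

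For all 10 mast-cell genes the lowest luteolin library lay above the highest control library, a pattern shown by 15.9% of all genes tested. At the study's threshold 9 of the 10 were up-regulated, beside the 11.3% of all genes, and none was down-regulated. At an adjusted p under 0.05, 2 of the 10 were up-regulated (Hdc and Tpsab1), beside 1.34% of all genes. The median log2 fold change of the 10 genes was 2.74, with a range from 1.56 for Kit to 3.96 for Hdc, and the median of all genes tested was -0.0073. All 10 passed the filter on low counts, but Ms4a2, Fcer1a and Mrgprb1 passed it only through the luteolin libraries, so for these 3 some difference was built in. The summed level of the 10 genes was 11.5, 21.1 and 14.9 CPM in control replicates 1, 2 and 3 and 128, 158 and 56.7 CPM in luteolin replicates 1, 2 and 3. Luteolin replicate 3 held the lowest luteolin value for 9 of the 10 genes, and its summed level was above each control library.

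**Figure D1:**
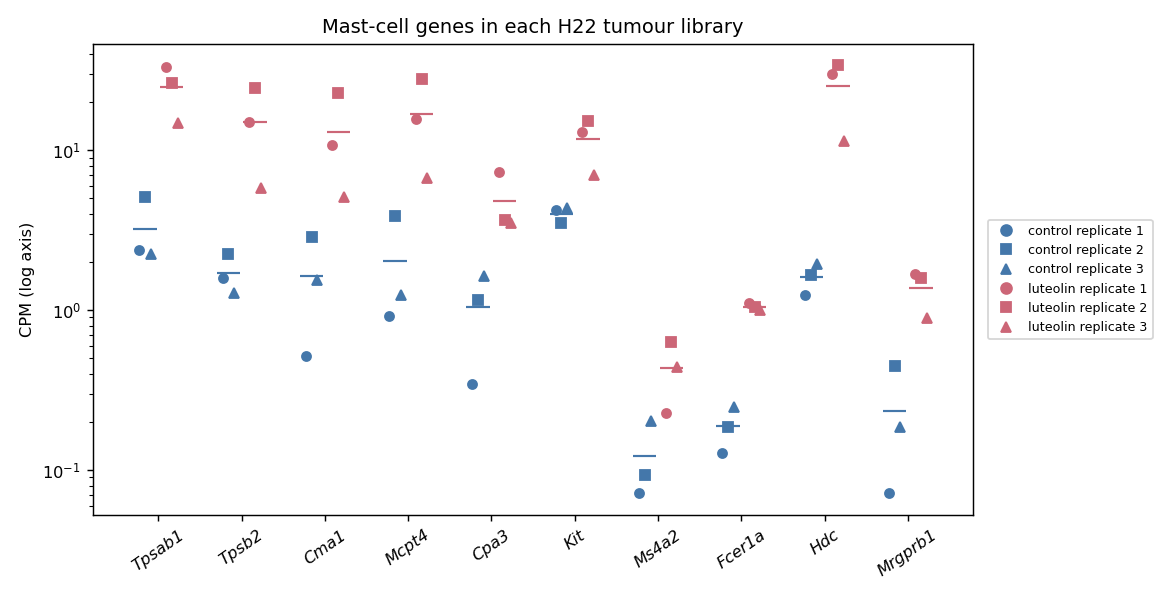
The CPM of each of the 10 mast-cell genes is plotted on a log axis, with 1 symbol per library (blue, control; red, luteolin) and a line at the mean of each group of 3. The 3 luteolin symbols lie above the 3 control symbols for every gene, with the narrowest gap at Ms4a2 (1.13-fold between the nearest libraries) and the widest at Hdc (5.93-fold).

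The tryptases are trypsin-like serine proteases that make up much of the granule protein. Tpsab1, which encodes mast cell protease 7, had 2.38, 5.11 and 2.23 CPM in control replicates 1, 2 and 3 and 33.0, 26.4 and 14.8 CPM in luteolin replicates 1, 2 and 3. Its lowest luteolin library was 2.89-fold above its highest control library. The group means were 24.7 ± 9.24 and 3.24 ± 1.62 CPM (SD, n = 3 each), a 7.63-fold ratio, and Tpsab1 rose by 2.93 on the log2 scale (standard error 0.47), with an adjusted p of 0.0429 (edgeR, quasi-likelihood, Benjamini-Hochberg). Tpsb2, the gene of mast cell protease 6, had 1.59, 2.25 and 1.29 CPM in the control libraries and 15.0, 24.5 and 5.81 CPM in the luteolin libraries, in replicate order. The groups did not overlap, and the spread within the luteolin group was wide, with an SD of 9.35 around a mean of 15.1 CPM. The log2 fold change of Tpsb2 was 3.14 (standard error 0.57), and its adjusted p of 0.0531 in edgeR lay just over 0.05. These genes are relatives on chromosome 17, and their longest transcripts in GENCODE M21 shared no stretch of 100 identical bases with a transcript of another gene. The ratio of Tpsab1 to Tpsb2 counts reached 2.27 in control replicate 2 and ran from 1.08 to 2.54 in the luteolin libraries, so that the groups overlapped (exact permutation test, two-sided p = 1, smallest possible 0.1).

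The chymase genes Cma1 and Mcpt4 lie in a protease cluster on chromosome 14 that also holds Mcpt1, Mcpt2, Mcpt8 and Ctsg. Cma1, which encodes mast cell protease 5, an enzyme of elastase-like specificity in the mouse, had 0.515, 2.86 and 1.55 CPM in control replicates 1, 2 and 3 and 10.8, 22.9 and 5.09 CPM in luteolin replicates 1, 2 and 3. Control replicate 2 was the highest control library and luteolin replicate 3 the lowest luteolin library, with a 1.78-fold gap between them. The log2 fold change of Cma1 was 2.98 (standard error 0.78, unadjusted p = 0.00684, adjusted p = 0.110 in edgeR, n = 3 each). It was 2.30 without luteolin replicate 2 and 3.60 without control replicate 2. Mcpt4, the gene of mast cell protease 4, which cleaves after aromatic residues, had 0.916, 3.89 and 1.24 CPM in the control libraries and 15.7, 28.0 and 6.74 CPM in the luteolin libraries. The order of the libraries was like that of Cma1, again without overlap between the groups. Mcpt4 had a log2 fold change of 3.06 (standard error 0.75, unadjusted p = 0.00466, adjusted p = 0.0974 in edgeR, n = 3 each). This value was 2.50 without luteolin replicate 2 and 3.92 without control replicate 2. The ratio of Mcpt4 to Cma1 ran from 0.800 to 1.78 in the control libraries and from 1.23 to 1.45 in the luteolin libraries, which lay within the control range.

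Cpa3 encodes carboxypeptidase A3, which removes C-terminal residues from peptides. It had 0.343, 1.16 and 1.64 CPM in control replicates 1, 2 and 3 and 7.27, 3.64 and 3.50 CPM in luteolin replicates 1, 2 and 3. Luteolin replicate 1 was the highest library, and luteolin replicate 2, which led for both chymases, was close to luteolin replicate 3. For Cpa3 it was 2.19 on the log2 scale (standard error 0.66, unadjusted p = 0.0125, adjusted p = 0.139 in edgeR, n = 3 each). The ratio of Mcpt4 to Cpa3 was accordingly 7.70 in luteolin replicate 2 and between 0.755 and 3.36 in the other 5 libraries.

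The stretch of 250 bases before the annotated start was read from RefSeq promoter windows on GRCm38.p6 for 8 of the 10 members, and Tpsab1 and Tpsb2 were not analysed here. The submitters' processing notes name mm39 and rn6 as builds, and the deposited table has no positions, so the coordinates are those of RefSeq alone. GATA factors and the factor MITF are known regulators of mast-cell genes. The letters GATAA on either strand, the core of the sequence that GATA factors recognize, were found in 5 of the 8 windows and in 23.0% of 27025 promoter windows of the same length. The letters CANNTG, the E-box recognized by MITF and many other factors, were found in 5 of the 8 and in 66.0% of all windows. A match of letters is a description and not a site of binding. The 5 windows with GATAA are shown, picked by this match and not by the levels of their genes. Matches are in capitals (GATAA, or TTATC where it lies on the other strand). All 5 windows lie on the minus strand and are given 5′ to 3′ in the direction of transcription, ending at the base before the start. They are Cma1 (chr14:55944676-55944925), Mcpt4 (chr14:56062311-56062560), Cpa3 (chr3:20242182-20242431), Ms4a2 (chr19:11623720-11623969) and Fcer1a (chr1:173227230-173227479).
Cma1: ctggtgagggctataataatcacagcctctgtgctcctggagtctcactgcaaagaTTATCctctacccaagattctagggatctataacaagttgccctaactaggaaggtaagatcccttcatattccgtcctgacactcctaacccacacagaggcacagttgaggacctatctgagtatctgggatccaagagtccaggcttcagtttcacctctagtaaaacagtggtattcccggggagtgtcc
Mcpt4: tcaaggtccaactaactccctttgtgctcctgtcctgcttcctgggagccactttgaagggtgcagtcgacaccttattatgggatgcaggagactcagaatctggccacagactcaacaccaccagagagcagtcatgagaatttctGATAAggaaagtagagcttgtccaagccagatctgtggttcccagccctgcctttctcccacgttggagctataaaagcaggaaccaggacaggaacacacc
Cpa3: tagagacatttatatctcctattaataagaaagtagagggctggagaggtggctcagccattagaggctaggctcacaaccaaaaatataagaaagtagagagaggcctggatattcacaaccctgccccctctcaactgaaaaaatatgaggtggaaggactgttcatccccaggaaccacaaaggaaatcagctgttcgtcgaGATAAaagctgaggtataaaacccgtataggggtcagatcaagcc
Ms4a2: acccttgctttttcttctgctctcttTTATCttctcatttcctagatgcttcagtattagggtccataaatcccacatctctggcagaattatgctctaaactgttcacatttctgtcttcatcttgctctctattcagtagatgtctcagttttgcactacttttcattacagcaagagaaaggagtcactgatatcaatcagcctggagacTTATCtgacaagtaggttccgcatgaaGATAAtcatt
Fcer1a: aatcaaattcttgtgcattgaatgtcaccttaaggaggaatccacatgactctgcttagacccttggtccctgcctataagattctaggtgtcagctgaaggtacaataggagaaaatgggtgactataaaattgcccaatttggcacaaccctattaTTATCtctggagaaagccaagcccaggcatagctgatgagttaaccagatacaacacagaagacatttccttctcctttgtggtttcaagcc
The match of Cpa3 began 45 bases before the start and that of Mcpt4 began 102 bases before it, while Ms4a2 held 3 matches. No GATAA was found in the windows read for Kit, Hdc and Mrgprb1, of which Hdc had the largest fold change of the 10 genes and Kit the smallest. Kit has 2 promoter windows in this source, and only the first was read.

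Kit encodes the receptor for stem cell factor, on which mast cells, melanocytes and blood progenitors rely. It had 4.21, 3.49 and 4.33 CPM in control replicates 1, 2 and 3 and 13.0, 15.3 and 7.01 CPM in luteolin replicates 1, 2 and 3. The control libraries lay close together (mean 4.01 ± 0.452 CPM, n = 3), and each luteolin library was above them, at least 1.62-fold over the highest. The log2 fold change of Kit, the smallest of the set, was 1.56 (standard error 0.36, unadjusted p = 0.00347, adjusted p = 0.0861 in edgeR, n = 3 each). Melanocytes, the other Kit-expressing cells of skin, were read by 5 genes, of which Dct, Tyr, Tyrp1 and Mlana were at 0 counts in every control library. In luteolin replicate 2 Dct and Tyrp1 had 161 and 113 counts, in luteolin replicate 1 they had 8 and 0, and in luteolin replicate 3 they had 0 and 16. The sum of the 5 genes was 2.42 to 4.97 CPM in the control libraries and 2.38, 7.56 and 2.58 CPM in the luteolin libraries. The part of such cells in the Kit level was not tested.

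Fcer1a and Ms4a2 encode the IgE-binding alpha chain and the signal-amplifying beta chain of FcεRI. Fcer1a had 9, 12 and 16 counts in control replicates 1, 2 and 3 and 68, 87 and 64 counts in luteolin replicates 1, 2 and 3. The luteolin libraries were nearly equal at 1.11, 1.04 and 1.00 CPM, the narrowest spread of any member (coefficient of variation 5.24%), against 0.129 to 0.248 CPM in the control libraries. The log2 fold change was 2.48 (standard error 0.56, unadjusted p = 0.00305, adjusted p = 0.0831 in edgeR, n = 3 each). Fcer1a and Ms4a2 both passed the filter on low counts only through the luteolin libraries, so some difference was built into their tests. Ms4a2 had the lowest counts of the set, with 5, 6 and 13 in the control libraries and 14, 53 and 28 in the luteolin libraries. Its groups were separated by 1.13-fold only, and its log2 fold change of 1.82 (standard error 0.77) was short of the study's threshold (unadjusted p = 0.0502, adjusted p = 0.245 in edgeR, n = 3 each). With upper-quartile normalization the unadjusted p of Ms4a2 was 0.0455 and it passed. Of the values from 1 to 40 in the table, 44.8% were multiples of 4, and how many read pairs such a low count stands for is not known.

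Hdc encodes histidine decarboxylase, the only enzyme that makes histamine, and is expressed by mast cells, basophils and some neutrophils. It had 1.24, 1.65 and 1.94 CPM in control replicates 1, 2 and 3 and 29.8, 33.9 and 11.5 CPM in luteolin replicates 1, 2 and 3. Its lowest luteolin library was 5.93-fold above its highest control library, the widest separation of the set. The means were 25.1 ± 11.9 and 1.61 ± 0.348 CPM (SD, n = 3 each), and Hdc rose by 3.96 on the log2 scale (standard error 0.48), with an adjusted p of 0.0331 in edgeR. Within each library, the ratio of Hdc to Kit counts was 0.296, 0.473 and 0.448 in the control group and 2.29, 2.21 and 1.64 in the luteolin group. These ratios did not overlap (exact permutation test, two-sided p = 0.1, the smallest possible), and this pair of genes was chosen after the values were seen. A list of 5 neutrophil genes moved with Hdc, with 4 of 5 up-regulated at the study's threshold, beside 11.3% of all genes. The summed level of this list was 16.5 to 19.1 CPM in the control libraries against 163, 180 and 70.9 CPM in luteolin replicates 1, 2 and 3. No gene of that list was at 0 in all control libraries, S100a9 had a log2 fold change of 4.70 (adjusted p = 0.0331 in edgeR), and Ly6g, a neutrophil marker, had 0, 9 and 33 counts in the luteolin libraries against 13, 36 and 12 in the control libraries. The part of neutrophils in the Hdc level was not tested.

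Mrgprb1 belongs to the Mas-related receptors, a family in which Mrgprb2 triggers mast-cell degranulation without IgE. It had 5, 29 and 12 counts in control replicates 1, 2 and 3 and 103, 132 and 57 counts in luteolin replicates 1, 2 and 3. Control replicate 2 was the highest control library, and the groups were 1.99-fold apart at their nearest. The log2 fold change was 2.55 (standard error 0.77, unadjusted p = 0.0133, adjusted p = 0.143 in edgeR, n = 3 each). Mrgprb1 also passed the filter on low counts only through the luteolin libraries. Its log2 fold change was 2.08 without control replicate 1 and 3.39 without control replicate 2. Without control replicate 3 the unadjusted p of Mrgprb1 was 0.0501 in edgeR, which is no longer past the study's threshold.

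The levels were then ordered by CPM per kilobase of merged exons in GENCODE M21, the scale on which genes can be compared. In the luteolin group Mcpt4 stood first with 15.2 ± 9.65, followed by Cma1 (11.9 ± 8.33), Tpsab1 (11.8 ± 4.41), Hdc (10.5 ± 5.00) and Tpsb2 (9.47 ± 5.87 CPM per kilobase, SD, n = 3). Cpa3 (3.31 ± 1.47) and Kit (2.24 ± 0.817) came next, and then Fcer1a (1.05 ± 0.0551), Mrgprb1 (0.331 ± 0.103) and Ms4a2 (0.154 ± 0.0721). Only the steps from Kit to Fcer1a and from Fcer1a to Mrgprb1 separated neighbours in this order without overlap of their libraries. The control order also opened with Mcpt4 (1.82 ± 1.47), followed by Tpsab1 (1.55 ± 0.775), with which its libraries overlapped. It closed, as in the luteolin group, with Mrgprb1 (0.0562 ± 0.0461) and Ms4a2 (0.0434 ± 0.0248 CPM per kilobase). There Hdc ranked in place 7 with 0.674 ± 0.146 CPM per kilobase, below Kit (0.763 ± 0.0861) and Cpa3 (0.724 ± 0.453), with which its libraries overlapped.

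To set the genes against leukocyte RNA as a whole, each was also expressed per 1000 counts of Ptprc, the gene of the leukocyte antigen CD45. Ptprc itself had 46.1, 56.6 and 80.6 CPM in control replicates 1, 2 and 3 and 126, 148 and 134 CPM in luteolin replicates 1, 2 and 3, a log2 fold change of 1.16 (standard error 0.23, unadjusted p = 0.00142, adjusted p = 0.0638 in edgeR). Hdc had 27.0, 29.2 and 24.1 counts per 1000 Ptprc counts in the control libraries and 237, 229 and 85.5 in the luteolin libraries, a difference of 2.64 on the log2 scale. Tpsab1, Tpsb2, Cpa3 and Fcer1a per Ptprc were likewise without overlap between the groups, higher under luteolin, with differences of 1.77, 1.76, 1.19 and 1.35 on the log2 scale. For these 5 genes the exact permutation test (two-sided) gave p = 0.1, the smallest that 3 libraries against 3 allow. Cma1, Mcpt4, Mrgprb1 and Ms4a2 overlapped between the groups on this scale, with differences of 1.84, 1.94, 1.69 and 0.67 (exact permutation p = 0.2 each). Kit had 91.2, 61.7 and 53.7 counts per 1000 Ptprc counts in the control libraries and 103, 104 and 52.2 in the luteolin libraries. Luteolin replicate 3 was thus the lowest of all 6 for Kit per Ptprc, and the difference of 0.29 on the log2 scale was within the spread between libraries (exact permutation p = 0.6). A family of 10 such ratios was computed and none could pass 0.05 in this design.

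**Figure D2:**
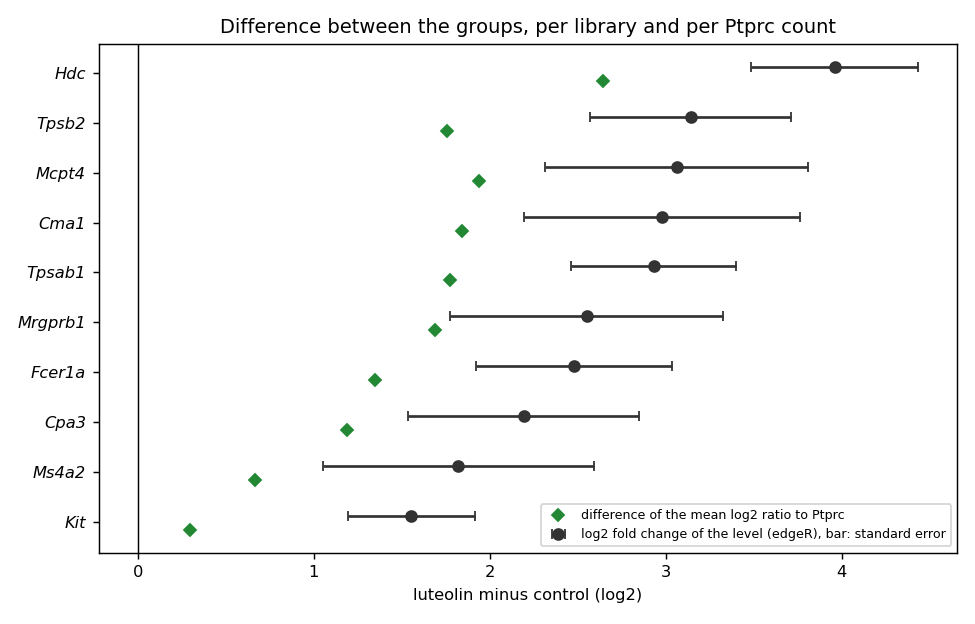
For each of the 10 genes, the black point is the log2 fold change of the level, luteolin minus control, with its standard error from edgeR as the bar, and the green diamond is the difference in mean log2 ratio to Ptprc. Every diamond lies to the left of its point and to the right of 0, from 0.29 for Kit to 2.64 for Hdc.

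Other granule genes were read from a list of 10, of which 7 passed the filter on low counts. At the study's threshold 3 were up-regulated, beside 11.3% of all genes, and none was down-regulated. The lowest adjusted p of the 7 was 0.0758 in edgeR, and their median log2 fold change was 1.81. Srgn encodes serglycin, the proteoglycan core that holds proteases in granules of mast cells and other leukocytes, and had 25.6, 74.5 and 61.6 CPM in the control libraries and 213, 149 and 207 CPM in the luteolin libraries. Its log2 fold change was 1.81 (standard error 0.39, unadjusted p = 0.00241, adjusted p = 0.0762 in edgeR). Mcpt1, the gene of a mucosal mast-cell chymase, had 2.06, 4.19 and 1.67 CPM in control replicates 1, 2 and 3 and 24.1, 7.10 and 18.5 CPM in luteolin replicates 1, 2 and 3, a log2 fold change of 2.65 (standard error 0.57, unadjusted p = 0.00239, adjusted p = 0.0758 in edgeR). Mcpt2, the other mucosal gene, was chosen after its values were seen and had 0.401, 4.63 and 1.86 CPM in the control libraries and 20.2, 2.94 and 12.4 CPM in the luteolin libraries, so that the groups overlapped. It still passed the study's threshold (log2 fold change 2.36, standard error 0.98, unadjusted p = 0.0471, adjusted p = 0.238 in edgeR). Luteolin replicate 2, which had the most Cma1, Mcpt4 and Tpsb2 of all libraries, had the least Mcpt1 and Mcpt2 of the luteolin group. The tested genes of this list that did not pass the study's threshold were Slc18a2, Ndst2, Rab27b and Ctsg, named after their values were seen. Their log2 fold changes were -0.10, 0.20, 1.11 and 1.86, in that order (adjusted p = 0.937, 0.732, 0.512 and 0.283 in edgeR). Ctsg passed the filter on low counts only through the luteolin libraries. Tpsg1, Mcpt9 and Cma2 did not pass the filter, and Mcpt9 was at 0 counts in all 6 libraries.

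**Figure D3:**
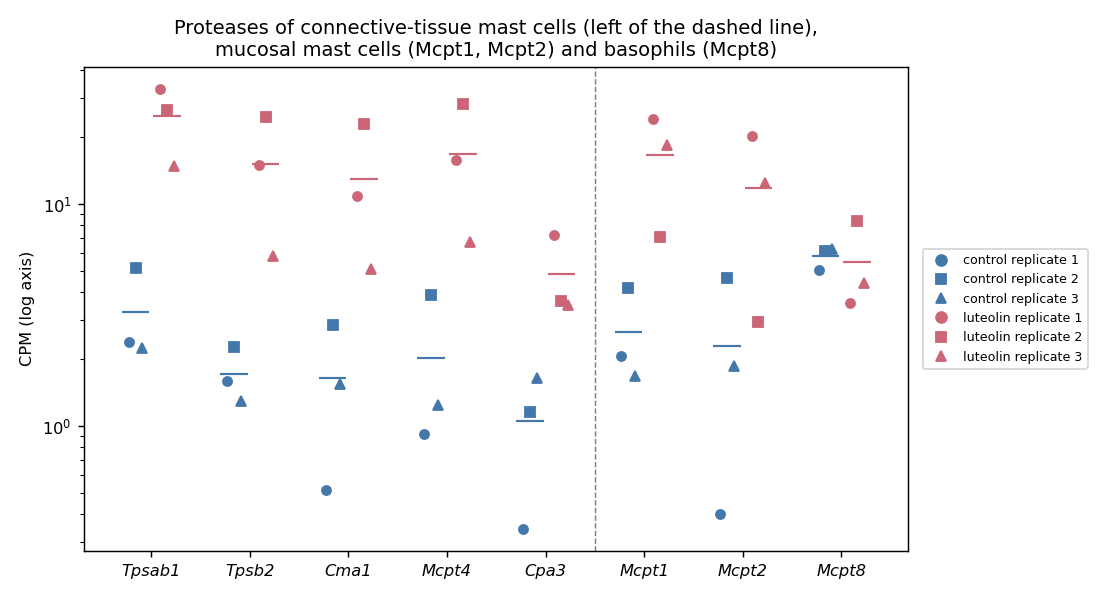
The CPM of 5 proteases of the mast-cell set, of Mcpt1 and Mcpt2 and of the basophil gene Mcpt8 is plotted on a log axis, with 1 symbol per library and a line at each group mean. Luteolin replicate 2 (red square) is at the top for Tpsb2, Cma1, Mcpt4 and Mcpt8 and at the bottom of the luteolin group for Mcpt1 and Mcpt2, and the control and luteolin symbols of Mcpt8 overlap.

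Among 6 lineage factors and other receptors, 5 were tested and 2 were up-regulated at the study's threshold, beside 11.3% of all genes. Il1rl1 encodes ST2, the receptor for IL-33, and rose from 1.49, 1.08 and 1.26 CPM in the control libraries to 10.7, 6.59 and 7.18 CPM in the luteolin libraries (log2 fold change 2.68, standard error 0.37, adjusted p = 0.0331 in edgeR). Mrgprb2, the receptor for basic secretagogues on connective-tissue mast cells, had 5, 12 and 0 counts against 29, 73 and 27 counts (log2 fold change 2.76, standard error 1.15, unadjusted p = 0.0474, adjusted p = 0.238 in edgeR). It passed the filter on low counts only through the luteolin libraries, and the count of this list was 1 without that filter, without control replicate 3 and without any one luteolin library. Gata2, Mitf and Adora3 did not pass the study's threshold, with log2 fold changes of 0.87, 0.60 and 0.63 and libraries that overlapped between the groups. These 3 were named after their values were seen.

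Of 7 genes for the synthesis or breakdown of lipid and amine mediators, 4 were up-regulated at the study's threshold, beside 11.3% of all genes. At an adjusted p under 0.05, 1 was up-regulated, beside 1.34% of all genes. That gene was Tph1, which encodes the tryptophan hydroxylase of peripheral serotonin synthesis, with 8, 12 and 20 counts in the control libraries and 236, 242 and 92 counts in the luteolin libraries (log2 fold change 3.74, standard error 0.65, adjusted p = 0.0487 in edgeR). Tph1 passed the filter only through the luteolin libraries, and the count of this list at an adjusted p under 0.05 was 0 with any of the 6 libraries left out and 0 without the filter, while 2 to 4 of its genes passed the study's threshold with 1 library left out. Alox5ap, whose product presents arachidonic acid to 5-lipoxygenase, had a log2 fold change of 1.66 (standard error 0.38, unadjusted p = 0.00339, adjusted p = 0.0856 in edgeR). In the list for FcεRI and KIT signalling, 7 of 12 genes were up-regulated at the study's threshold, 4 of them at an adjusted p under 0.05, and 10 of 12 lay above every control library in each luteolin library. The shares of all genes tested were 11.3%, 1.34% and 15.9%, in the same order. Lcp2, the gene of the adaptor SLP-76, rose by 1.43 and Fyn, a Src-family kinase gene, by 1.51 on the log2 scale (adjusted p = 0.0338 and 0.0403 in edgeR). These signalling genes are expressed by many leukocytes besides mast cells.

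Among the ligands, Kitl encodes stem cell factor, the ligand of KIT, and had 17.8, 28.8 and 51.2 CPM in control replicates 1, 2 and 3 and 17.8, 9.97 and 18.4 CPM in luteolin replicates 1, 2 and 3. It was down-regulated at the study's threshold (log2 fold change -1.08, standard error 0.43, unadjusted p = 0.0396, adjusted p = 0.219 in edgeR), although luteolin replicate 3 lay above control replicate 1. This call was lost without control replicate 2, without control replicate 3 and without each luteolin library in turn, and in voom with sample quality weights. Il33, the gene of the alarmin that binds ST2, had 105, 257 and 482 counts in the control libraries and 2006, 2114 and 701 counts in the luteolin libraries, with no overlap (log2 fold change 2.41, standard error 0.65, unadjusted p = 0.00776, adjusted p = 0.115 in edgeR). Il33 and Il13 were the 2 genes of this list up-regulated at the study's threshold among 4 tested, beside 11.3% of all genes. This count was 1 with any of the 6 libraries left out and 1 without the filter, through which Il13 passed only by its luteolin libraries. Il3, Il9 and Tslp did not pass the filter.

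Basophils share FcεRI and histamine with mast cells and were read by Mcpt8, Prss34 and Cd200r3. Mcpt8, the gene of a basophil protease, had 5.05, 6.10 and 6.25 CPM in the control libraries and 3.58, 8.33 and 4.41 CPM in the luteolin libraries. The groups overlapped, and the log2 fold change of Mcpt8 was -0.09 (adjusted p = 0.932 in edgeR, standard error 0.40). Cd200r3, a receptor of basophils and mast cells, had 4, 12 and 8 counts against 59, 49 and 28 counts (log2 fold change 2.42, standard error 0.73, unadjusted p = 0.0129, adjusted p = 0.141 in edgeR). Cd200r3 passed the filter only through the luteolin libraries, and its call was lost without luteolin replicate 1 and with the replicate number as a block. It was not tested with at least 10 counts in every library or with values divided by 4. Prss34 was at 0 in 5 of the 6 libraries.

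Markers of other cells moved with the mast-cell genes to different degrees. The counts of up-regulated genes in these lists stand beside 11.3% of all genes at the study's threshold. For keratinocytes, 9 of 10 genes were tested and all 9 were up-regulated at the study's threshold. Of the 10, 7 were at 0 counts in every control library, among them Krt14. Those of these 7 that were tested had passed the filter only through the luteolin libraries, and so had Trp63. Luteolin replicate 3 had 16.6 CPM of the keratinocyte genes against 3.92 to 4.77 CPM in the control libraries, and 56.7 CPM of the mast-cell genes against 11.5 to 21.1 CPM. For fibroblasts, 4 of 6 genes were up-regulated, with sums of 1408 to 1575 CPM in the control libraries and 4067, 4976 and 2012 CPM in luteolin replicates 1, 2 and 3. Col1a1 was above every control library in each luteolin library, at 1004, 1534 and 619 CPM against 325 to 502 CPM. The T-cell list had 4 of 4 genes up-regulated (25.8 to 44.7 against 5.94 to 7.86 CPM), the macrophage list 1 of 4 (758 to 844 against 417 to 507 CPM) and the endothelial list 2 of 3 (89.2 to 228 against 72.3 to 87.2 CPM). The dendritic-cell list had 3 of 5 up-regulated genes, of which Xcr1 passed the filter only through the luteolin libraries. Adipocyte and skeletal muscle lists had none, and their sums overlapped between the groups. The part of these cells in the mast-cell levels was not tested.

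**Figure D4:**
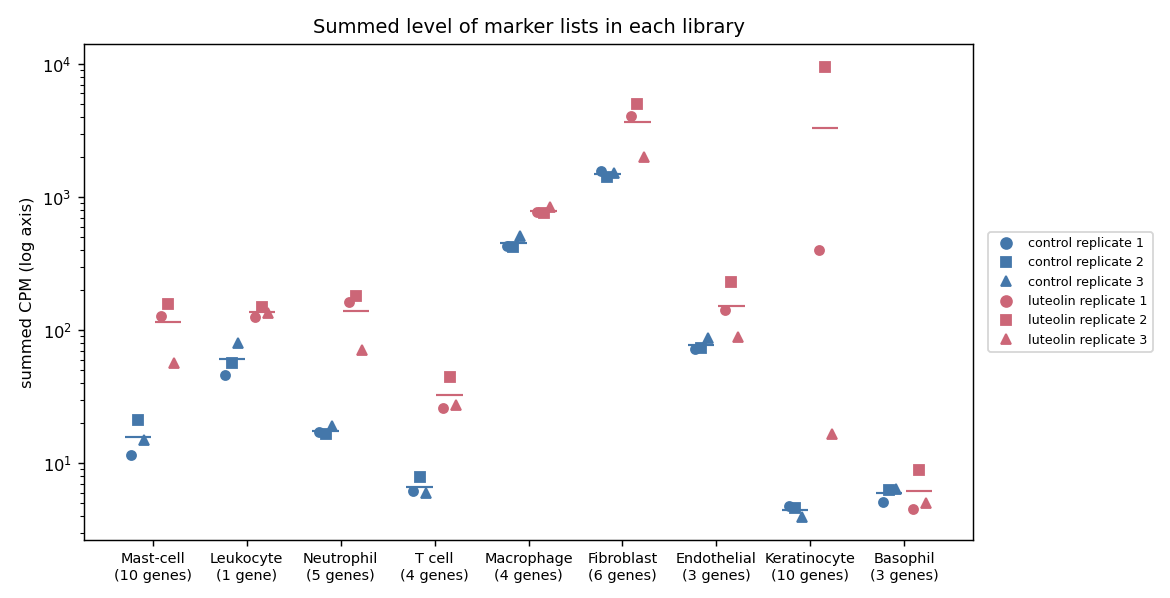
The summed CPM of the 10 mast-cell genes and of 8 marker lists is plotted on a log axis, with 1 symbol per library and a line at each group mean. The keratinocyte sums of the luteolin libraries spread from 16.6 to 9564 CPM, those of the mast-cell genes from 56.7 to 158 CPM, and the basophil sums of the groups overlap.

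With luteolin replicate 2 left out, 9 of the 10 mast-cell genes passed the study's threshold, beside 7.52% of all genes that were higher, and 3 had an adjusted p under 0.05 in edgeR (Hdc, Tpsab1 and Tpsb2, at 0.0256, 0.0420 and 0.0489), beside 2.06% of all genes in either direction. Without that library the genes up-regulated at the study's threshold numbered 3 in the granule list, 1 in the lineage and receptor list, 3 in the mediator list, 5 in the signalling list, 1 among the ligands and 1 in the basophil list, and 4 signalling genes had an adjusted p under 0.05. With luteolin replicates 1 and 2 left out, an alternative chosen after seeing the data, the 3 control libraries were compared with luteolin replicate 3 alone, which is assumed to vary like the other libraries. Of the 10 genes, 3 passed the study's threshold (Hdc, Tpsab1 and Tpsb2, with log2 fold changes of 2.85, 2.20 and 1.78), beside 4.95% of all genes, and the lowest adjusted p was 0.119 (Hdc). The adjusted calls of Hdc and Tpsab1 were also lost when any control library or luteolin replicate 1 was left out, where Hdc had adjusted p values from 0.124 to 0.207 and Tpsab1 from 0.134 to 0.207 in edgeR. Without any one control library or luteolin replicate 1, 0 genes of the whole table had an adjusted p under 0.05 in edgeR, and 1907 to 2462 had an unadjusted p under 0.05. Over all alternatives the adjusted p ranged from 1.23e-15 to 0.207 for Hdc and from 1.28e-08 to 0.246 for Tpsab1.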

How the data were processed

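RNA-seq of H22 tumours from the control and luteolin groups was analysed (3 libraries each), with 0 columns left out. The authors deposited estimated counts per gene symbol, written as whole numbers without scaling between libraries. The submitters' processing notes name HISAT2, StringTie and DESeq2, and the annotation and strand setting are not given in the sources used here. Counts were compared in R 4.3.3 with edgeR 4.0.16 (TMM, filterByExpr, quasi-likelihood test, two-sided, no covariates) over all 14963 genes that passed the filter, with Benjamini-Hochberg adjustment. The standard error is the log2 fold change divided by the square root of F. Single ratios were compared by exact permutation tests. The code was tested on simulated data. The 10 members and all lists were chosen with earlier results of these data known. Named are all members, 2 genes of smallest p from each mast-cell, mediator, signalling, ligand, receptor or basophil list, examples from the 2 most abundant genes of other cell lists, Ptprc, and the 5 genes with the nearest profile. Genes outside this rule (Mcpt2, Slc18a2, Ndst2, Rab27b, Ctsg, Gata2, Mitf, Adora3, Il13, Ly6g, Gpc3, Trp63, Xcr1, genes at 0 or under the filter) were chosen after their values were seen. Alternatives were DESeq2 1.42.0, limma 3.58.1 voom with sample quality weights, RLE and upper-quartile normalization, other filters, values divided by 4, a block for the replicate number, and leaving out single libraries.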

Additional observations from a re-analysis of the deposited data

How the results depend on the processing

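Each mast-cell gene kept its direction under every alternative in which it was tested, which left out Ms4a2, Fcer1a and Mrgprb1 with at least 10 counts in every library and Ms4a2 with values divided by 4. The count of 9 at the study's threshold ran from 8 to 9 with single libraries left out, beside 7.52% to 13.6% of all genes that were higher. It was 10 with upper-quartile normalization (11.8% of all genes) and 7 of 7 tested with at least 10 counts in every library (10.9%). The count of 2 at an adjusted p under 0.05 was less stable. It was 9 in DESeq2 (11.2% of all genes in either direction), 9 in voom with sample quality weights (21.4%) and 4 with values divided by 4 (2.75%). The share of all genes was 1.52% in the main fit. With single libraries left out the count ran from 0 to 3 (0 without any control library or luteolin replicate 1), beside 0 to 2.06% of all genes. Over all genes, an adjusted p under 0.05 was reached by 228 genes, by 1958 in DESeq2 and by 3197 in voom. With the replicate number as a block, 0 of the 10 and 35 genes of the whole table had an adjusted p under 0.05. In that fit 9 of the 10 passed the study's threshold, beside 8.64% of all genes that were higher. Nothing in the labels ties same-numbered libraries. Their deviations from the group means correlated by -0.20, -0.09 and 0.06 for replicates 1, 2 and 3. These values cannot decide whether same-numbered libraries were handled together, since other differences between libraries also enter them. The count without overlap between the groups was 10 with RLE and with upper-quartile normalization. Differences relative to Ptprc kept their sign, and that of Fcer1a was 1.16 with 2 counts added to each value. The causes were not tested. Depth limits Ms4a2, Fcer1a and Mrgprb1 most, whose control libraries hold 5 to 29 counts.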

Other observations

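Histamine receptors were read from a list of 4. Hrh2, whose receptor raises cyclic AMP, had 1.33, 1.03 and 1.35 CPM in control replicates 1, 2 and 3 and 3.04, 4.62 and 1.77 CPM in luteolin replicates 1, 2 and 3, and was up-regulated at the study's threshold (log2 fold change 1.34, standard error 0.48, unadjusted p = 0.0263, adjusted p = 0.186 in edgeR). This call was lost without any one control library, without luteolin replicate 1, without luteolin replicate 2 and with the replicate number as a block. Hrh1 had 14.3 CPM in control replicate 3 and 12.8 CPM in luteolin replicate 3, and between 0.563 and 1.03 CPM in the other 4 libraries, so that its 2 high libraries belonged to different groups. Hrh3 and Hrh4 did not pass the filter on low counts.

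The genes whose centred log2 CPM over the 6 libraries lay nearest to the mean profile of the 10 mast-cell genes were Htra4, Apol6, Serpina3i, Gk and Tbx21, with root mean square distances of 0.20, 0.22, 0.23, 0.23 and 0.24 on the log2 scale. The 10 genes themselves lay from 0.36 (Mrgprb1) to 0.80 (Ms4a2) from that mean. The 5 genes were picked as the nearest of all other genes tested, so their smaller distances follow from that choice. Tbx21 encodes T-bet, a factor of cytotoxic and helper lymphocytes, and Htra4 a secreted serine protease. The log2 fold changes were 2.62 for Tbx21 (adjusted p = 0.0815 in edgeR) and 2.71 for Htra4 (adjusted p = 0.0577 in edgeR). Both genes were picked by a profile that is higher under luteolin, so a rise was built in.

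The balance between mucosal and connective-tissue chymase genes differed among the luteolin libraries. The summed counts of Mcpt1 and Mcpt2 were 1.72, 1.31 and 1.27 times those of Cma1 and Mcpt4 in control replicates 1, 2 and 3, and 1.67, 0.197 and 2.61 times in luteolin replicates 1, 2 and 3. The highest and the lowest ratio of all 6 libraries were thus both in the luteolin group, and the groups overlapped (exact permutation test, two-sided p = 0.9). The library with the ratio of 0.197 is the one with 9564 CPM of keratinocyte genes, and the part of skin in this balance was not tested. These genes were combined after their values were seen.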
